A study of Mus musculus with 6 samples.

Results

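The genes described here are 10 genes of the contractile apparatus of smooth muscle and of myofibroblasts, chosen by name: *Acta2*, *Actg2*, *Tagln*, *Cnn1*, *Lmod1*, *Myh11*, *Myl9*, *Tpm1*, *Tpm2* and *Des*. Of these, 9 had a named entry in each of the 6 RNA-seq libraries, out of 48733 named genes in all. *Myh11* had none, and the unnamed feature over its position is described separately. All libraries came from mice of 1 inbred Collaborative Cross strain, CC016/GeniUnc, and no genotype or treatment separates the mice. One group of 3 was labelled bone, cortical bone of the femur freed of soft tissue and marrow, which holds several cell types. The other group of 3 was labelled osteoblasts, cells grown from bone marrow stroma in dishes with ascorbic acid, beta-glycerophosphate and dexamethasone, a mixture that drives stromal cells to form bone. Neither age nor sex is in the labels, and the study's methods give 3 mice. The comparison between the labels asks how expression in this bone tissue differs from that in the cultured cells.

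Smooth muscle cells and myofibroblasts, the contractile fibroblasts of healing tissue and of many cultures, pull by sliding myosin along actin filaments. *Acta2* and *Actg2* encode the smooth muscle alpha and gamma actins, *Myh11* the myosin heavy chain and *Myl9* a regulatory myosin light chain. Tropomyosins (*Tpm1*, *Tpm2*), calponin (*Cnn1*) and transgelin (*Tagln*, also called SM22 alpha) bind along the filament, leiomodin (*Lmod1*) starts new filaments, and desmin (*Des*) forms the intermediate filaments of muscle. Many of these genes are switched on by serum response factor (SRF) and its partners myocardin and the myocardin-related factors, which bind the CArG box, and transforming growth factor beta is a well known inducer in fibroblasts. *Tpm1*, *Tpm2* and *Des* are also genes of striated muscle, and *Tpm1* and *Myl9* are used by many cell types.

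The values are FPKM, fragments scaled to the length of the transcript and to all aligned fragments of the library, so that levels of different genes can be compared per length. Aligned depth, read from the ratio of coverage to FPKM, was 2.035 to 3.388 Gb of bases per library, at which 3 read pairs from a 1 kb transcript give 0.133 to 0.221 FPKM. This floor covers counting error only. The libraries did not part by label. *Hbb-bt*, a gene of red blood cells, was at 34838 FPKM in the library labelled bone replicate 3, at 34268 FPKM in osteoblasts replicate 2 and at 48650 FPKM in osteoblasts replicate 3, and between 3.43 and 7.05 FPKM in the other 3. These 2 sets are called the high and the low *Hbb-bt* libraries, a description of single libraries and not groups of the study. Summed neutrophil markers were at 14421 to 17408 FPKM in the high libraries against 0.61 to 5.79 FPKM in the low ones, endothelial markers at 172 to 181 against 3.05 to 13.6 FPKM, and macrophage markers at 1689 to 2086 against 5582 to 10137 FPKM. Blood and endothelial markers were thus high in 2 libraries labelled as cultured osteoblasts and low in 2 labelled as bone, against those labels. Osteoblast and osteocyte markers summed to 3207 to 5176 FPKM in all 6, but single markers parted by set. The osteocyte gene *Sost* was at 15.8 to 22.7 FPKM in the high and at most 0.198 FPKM in the low libraries, *Bglap2* at 1641 to 1959 and 264 to 513 FPKM, and *Ibsp* at 43.1 to 91.3 and 986 to 1278 FPKM. Unnamed features held 71.5% of the FPKM in bone replicate 2 and 65.0% in osteoblasts replicate 1, against 27.4% to 30.7% in the others. These are shares of summed FPKM and not of fragments, and their effect on the FPKM of named genes was not tested.

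The promoters of *Acta2*, *Myl9* and *Cnn1* are shown because these genes differ in how far their levels ranged over the libraries. RefSeq promoter sequence on GRCm38.p6 was given for 7 of the 10 genes, and not for *Tagln*, *Myh11* and *Actg2*. The 250 bases before each start were searched for the CArG box, which is CC, then 6 bases of A or T, then GG, and so is the same motif on both strands. Capitals mark a match with at most 1 mismatch among the 6 inner bases. Each sequence reads 5′ to 3′ on the strand of its gene. *Myl9* is shown up to its outermost RefSeq start at chr2:156775214-156775407 (plus strand), *Cnn1* likewise at chr9:22099003-22099220 (plus strand), and *Acta2* as 2 runs of 30 bases, at chr19:34255438-34255467 and chr19:34255388-34255417 (minus strand).
Myl9: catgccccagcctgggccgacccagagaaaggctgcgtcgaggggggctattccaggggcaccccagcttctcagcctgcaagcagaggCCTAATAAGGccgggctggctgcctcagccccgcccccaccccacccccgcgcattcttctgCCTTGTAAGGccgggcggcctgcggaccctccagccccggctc
Cnn1: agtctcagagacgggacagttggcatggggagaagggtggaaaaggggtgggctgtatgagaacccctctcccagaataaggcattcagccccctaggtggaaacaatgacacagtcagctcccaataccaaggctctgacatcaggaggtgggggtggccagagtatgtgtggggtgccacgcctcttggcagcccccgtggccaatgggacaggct
Acta2 first match: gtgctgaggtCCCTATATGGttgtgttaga
Acta2 second match: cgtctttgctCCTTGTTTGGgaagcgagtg

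*Myl9* had an exact match 161 bases before the start in the promoter table and a match with 1 mismatch 99 bases before it. *Acta2* had 2 matches with 1 mismatch each, 84 and 34 bases before its start in that table. The RefSeq span of *Acta2* reaches further, to 34255585, so both matches lie inside the span. The window of *Tpm1* also lies wholly inside its RefSeq span. The windows of *Cnn1*, *Lmod1*, *Tpm1*, *Tpm2* and *Des* had no match, which says only that these letters are not in 250 bases. Over all 32851 promoters, 1.47% held an exact match and 8.59% a match with at most 1 mismatch, against 1 and 2 of the 7 genes. A match is a run of letters and not a measured binding site.

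*Acta2* (chromosome 19, minus strand, 34241090 to 34255336 in the GRCm38 coordinates of the tables) was at 351, 136 and 11.8 FPKM in the libraries labelled bone replicates 1, 2 and 3. It was at 144, 8.03 and 6.79 FPKM in those labelled osteoblasts replicates 1, 2 and 3. The 3 low *Hbb-bt* libraries were all high and the 3 high *Hbb-bt* libraries all low, with a gap of 11.6 times between the lowest of the former and the highest of the latter, while the labels overlapped. Among genes at 1 FPKM or more, *Acta2* lay above 98.4% to 99.2% in the low *Hbb-bt* libraries and above 52.3% to 69.9% in the high ones. In bulk RNA, fewer cells that express a gene and less RNA of it per cell cannot be told apart.

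*Actg2*, the second smooth muscle actin (chromosome 6, minus strand, 83512905 to 83536265), was at 65.6, 14.6 and 1.13 FPKM under the label bone and at 23.0, 0.583 and 0.795 FPKM under the label osteoblasts. Its order over the libraries was that of *Acta2* apart from osteoblasts replicates 2 and 3, and its gap between the 2 sets was 13.0 times. The values in the high *Hbb-bt* libraries correspond to about 17.5 to 25.2 read pairs, so the order among those 3 libraries carries counting error. A long non-coding RNA gene, *Gm38844*, overlaps 4499 bp of the RefSeq span of *Actg2*, and the library kit does not mark strand, so reads from both cannot be told apart there. Reads of one actin could also be counted for another. The coding sequence of *Acta2* was 84.2% identical to that of *Actg2* and 85.4% to that of *Acta1*, but 0 of 1707 windows of 75 bases, the read length, in *Acta2* transcripts occurred in either.

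The other actin genes give these values their setting. *Acta1*, the actin of skeletal muscle, was at 1.04, 0.451 and 558 FPKM under the label bone and at 0.0324, 109 and 246 FPKM under the label osteoblasts. *Actg1*, a cytoplasmic actin of nearly all cells, stayed between 73.2 and 208 FPKM, and *Actc1* of heart muscle was listed at 0 in the low *Hbb-bt* libraries and at 0.949 to 3.68 FPKM in the high ones. *Actb* had no named entry, and the unnamed feature over it was at 830 to 2023 FPKM. As a share of all actin FPKM, *Acta2* made up 15.1%, 12.9% and 11.3% in the low *Hbb-bt* libraries (bone replicates 1 and 2, osteoblasts replicate 1). It made up 0.460%, 0.343% and 0.278% in the high ones (bone replicate 3, osteoblasts replicates 2 and 3), where *Acta1* made up 21.7%, 4.65% and 10.1%. The smooth muscle actin share and the skeletal muscle actin share therefore lay in opposite sets of libraries.

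**Figure D1:**
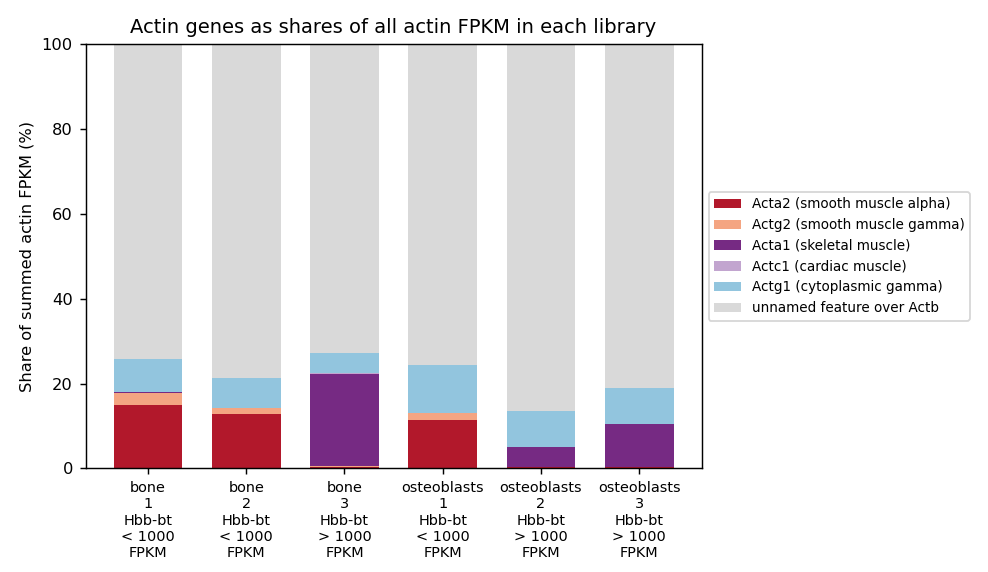
Stacked bars give each actin gene as a share (%) of the summed FPKM of the 6 actin genes in each library, with the deposited label and whether *Hbb-bt* was above 1000 FPKM under each bar. *Acta2* fills 11.3% to 15.1% of the bar in the 3 low *Hbb-bt* libraries and at most 0.460% in the other 3, where *Acta1* fills 4.65% to 21.7%.

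Transgelin, calponin and leiomodin followed the smooth muscle actins. *Tagln* (chromosome 9, minus strand, 45929619 to 45936058) was at 132, 50.6 and 5.23 FPKM under the label bone and at 61.5, 3.49 and 4.05 FPKM under the label osteoblasts. *Cnn1* (chromosome 9, plus strand, 22099216 to 22109630) was at 14.7, 5.86 and 0.503 FPKM and at 4.77, 0.234 and 0.162 FPKM. *Lmod1* (chromosome 1, plus strand, 135324807 to 135368065) was at 6.70, 2.26 and 0.598 FPKM and at 2.37, 0.278 and 0.352 FPKM. In each of the 3 genes the low *Hbb-bt* libraries did not overlap the high ones, with gaps of 9.68, 9.47 and 3.78 times, and bone replicate 1 was the highest library. In the high *Hbb-bt* libraries *Cnn1* rests on about 6.51 to 19.9 read pairs and *Lmod1* on about 23.6 to 39.5. The RefSeq span of *Tagln* shares 2480 bp with the protease gene *Pcsk7*, where reads cannot be assigned by strand.

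Each of these 3 genes has relatives outside the smooth muscle program, and the makeup of each family differed between the sets. *Tagln* was 66.5% to 78.6% of transgelin FPKM in the low *Hbb-bt* libraries and 4.44% to 7.33% in the high ones, where *Tagln2*, the form of blood cells and many other cells, was 92.5% to 95.6%. *Cnn1* was 4.64% to 7.33% of calponin FPKM in the low libraries and 0.117% to 0.336% in the high ones, with the broadly expressed *Cnn2* at 75.1% to 78.2% and at 94.2% to 94.4%. *Lmod1* was 65.9% to 79.5% of leiomodin FPKM in the low libraries and 20.4% to 30.6% in the high ones. *Lmod3*, the leiomodin of skeletal muscle, was listed at 0 in the former and was 33.1% to 47.2% in the latter, at no more than 0.823 FPKM.

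The myosin members behaved differently. *Myl9* (chromosome 2, plus strand, 156775420 to 156781658) was at 178, 57.8 and 58.6 FPKM under the label bone and at 84.6, 59.7 and 56.7 FPKM under the label osteoblasts. Bone replicate 1 was high, osteoblasts replicate 1 was second, and the other 4 libraries lay within 56.7 to 59.7 FPKM, so both the labels and the *Hbb-bt* sets overlapped. The promoter of *Myl9* above held the exact CArG match, while *Acta2*, with 2 inexact ones, ranged over 51.6 times and *Myl9* over 3.14 times. *Cnn1*, with no match, ranged over 91.1 times. A link between matches and ranges was not tested. *Myh11*, the heavy chain that marks mature smooth muscle, lies on chromosome 16 (minus strand, RefSeq 14194527 to 14292188). The unnamed feature with the largest overlap (14194525 to 14291408) was at 1.59, 0.523 and 1.72 FPKM under the label bone and at 0.968, 1.46 and 1.34 FPKM under the label osteoblasts. All 6 values were low, the sets overlapped, and the 3 libraries with the most *Acta2* were at 0.523 to 1.59 FPKM.

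*Tpm1* (chromosome 9, minus strand, 67022590 to 67049406) was at 233, 95.6 and 297 FPKM under the label bone and at 127, 131 and 191 FPKM under the label osteoblasts. *Tpm2* (chromosome 4, minus strand, 43514711 to 43523765) was at 155, 78.3 and 96.3 FPKM and at 90.0, 25.8 and 57.7 FPKM. Both tropomyosins overlapped between the sets and between the labels, and *Tpm1* lay above 97.1% to 98.7% of the genes at 1 FPKM or more in every library. Within the tropomyosin family *Tpm1* was 28.7% to 33.9% in the low *Hbb-bt* libraries and 45.5% to 61.8% in the high ones. The share of *Tpm2* went the other way without overlap, at 21.7% to 24.1% in the low and 8.97% to 20.1% in the high libraries. *Tpm4*, a tropomyosin of non-muscle cells, was 28.2% to 34.4% in the low and 7.70% to 20.8% in the high libraries.

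*Des* (chromosome 1, plus strand, 75360329 to 75368579) ran the other way. It was at 2.39, 0.615 and 61.0 FPKM under the label bone and at 0.971, 10.3 and 24.9 FPKM under the label osteoblasts. The high *Hbb-bt* libraries were all above the low ones, by 4.32 times at the nearest values, and the labels overlapped. As a share of *Vim* and *Des* together, the intermediate filament genes of mesenchyme and of muscle, *Des* was 0.236% to 0.437% in the low libraries and 8.06% to 42.9% in the high ones.

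**Figure D2:**
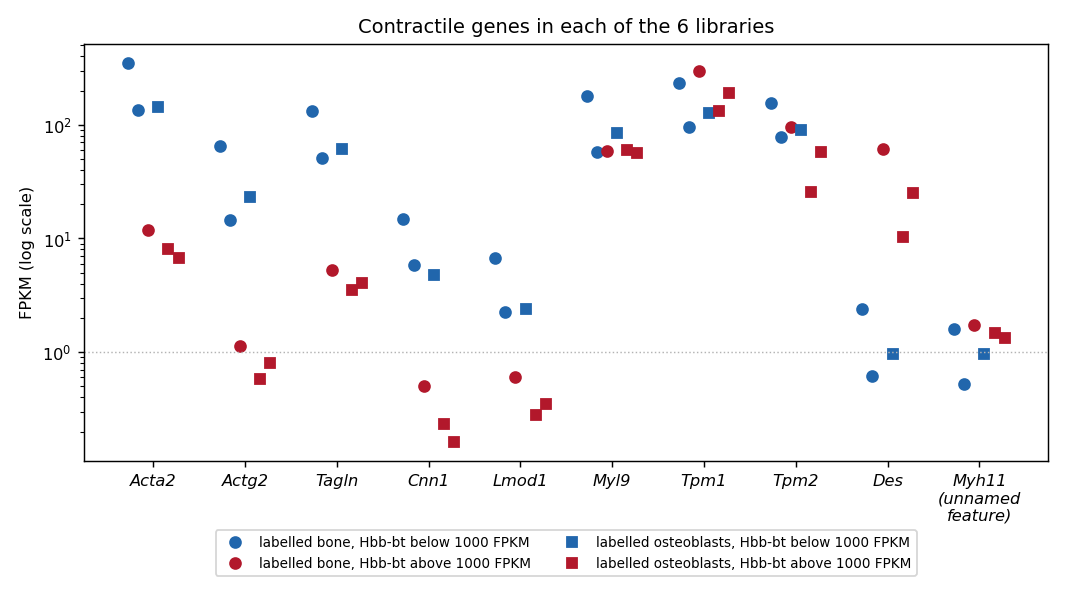
Points give the FPKM (log scale) of each contractile gene in each library, circles for the label bone and squares for the label osteoblasts, red where *Hbb-bt* was above 1000 FPKM and blue where it was below. The dotted line marks an FPKM of 1. The blue points lie above the red ones for *Acta2*, *Actg2*, *Tagln*, *Cnn1* and *Lmod1*, below them for *Des*, and overlap them for *Myl9*, *Tpm1*, *Tpm2* and the feature over *Myh11*.

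Of the 9 named genes, 5 (*Acta2*, *Actg2*, *Tagln*, *Cnn1* and *Lmod1*) were lower in all 3 high *Hbb-bt* libraries than in any of the low ones, a pattern shown by 16.9% of the 12112 genes tested, those whose mean FPKM was 1 or more. *Des* alone among the 9 was higher in all 3, as were 38.4% of all genes. A gap of at least 5 times, a size chosen after the values were seen, was found for 4 of the 9 (*Acta2*, *Actg2*, *Tagln* and *Cnn1*) and for 1.25% of all genes. In the high libraries *Cnn1* and *Lmod1* were at no more than 0.503 and 0.598 FPKM, and *Actg2* at 0.583 to 1.13 FPKM. These genes met the mean of 1 FPKM through the low libraries, where they were high, so the filter favoured the direction counted here. Rescaled to the sum of named genes, which sets aside the unnamed features, 7 were lower, with *Tpm2* and *Myl9* added at gaps of 2.00 and 2.34 times, against 50.1% of all genes. On that scale *Des* was still higher, with 19.9% of all genes, *Tpm1* overlapped, and the gap of *Acta2* was 27.4 times. Whether the ranges of *Tpm2* and *Myl9* overlapped between the sets thus depended on the scaling.

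The ratios among the 4 genes with wide gaps, chosen after their values were seen, ranged less than the genes themselves. The ratio of *Acta2* to *Tagln* was 2.66, 2.69 and 2.26 under the label bone and 2.34, 2.30 and 1.68 under the label osteoblasts, although *Acta2* itself ranged over 51.6 times. The ratio of *Acta2* to *Cnn1* lay between 23.3 and 42.0, and that of *Acta2* to *Actg2* between 5.34 and 13.8. On the log2 scale these 3 ratios spanned 0.69, 0.85 and 1.37. The other ratios among the 4 spanned 1.13 (*Actg2* to *Cnn1*), 1.54 (*Cnn1* to *Tagln*) and 1.58 (*Actg2* to *Tagln*), and that of *Lmod1* to *Tagln*, outside the 4, spanned 1.57. The ratio of *Acta2* to *Des* spanned 10.2, from 0.194 to 222. The log2 ratio of *Acta2* to *Tagln* was 1.34 ± 0.14 (SD, n = 3) in libraries labelled bone. In those labelled osteoblasts it was 1.06 ± 0.27 (SD, n = 3), a difference of -0.28 (exact permutation test, two-sided, p = 0.3). With 3 libraries against 3 such a test cannot give a p below 0.1.

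The ratio of *Des* to skeletal muscle actin differed between the sets. It was 0.109, 0.0951 and 0.101 to *Acta1* in bone replicate 3 and osteoblasts replicates 2 and 3, where *Acta1* ranged from 109 to 558 FPKM. In the low *Hbb-bt* libraries, bone replicates 1 and 2 and osteoblasts replicate 1, it was 2.29, 1.36 and 30.0, with *Acta1* at no more than 1.04 FPKM. The 30.0 divides by *Acta1* at 0.0324 FPKM, below the 0.221 FPKM that 3 read pairs on 1 kb give in that library. It therefore carries large counting error. The ratio was thus near constant only among the 3 libraries with high *Acta1*. Over these 3 libraries *Tpm1*, *Tpm2*, *Actg2*, *Tagln* and *Lmod1* had the same order as *Acta1* and *Des*, highest in bone replicate 3 and lowest in osteoblasts replicate 2, so this order did not set the striated muscle genes apart. *Acta2*, *Cnn1* and *Myl9* had another order. Skeletal muscle markers summed to 404 to 1611 FPKM in the high *Hbb-bt* libraries and to 1.63 to 3.87 FPKM in the low ones, where 6 of the 10 named markers (*Myl1*, *Tnnc2*, *Tnnt3*, *Casq1*, *Pvalb* and *Mybpc2*) were at 0 in every one of them. All 10 were higher in the high libraries (38.4% of all genes). The markers at 0 in every low library reached a mean of 1 FPKM only through the high ones, so the filter fixed their direction. The same holds for markers near 0 there, such as *Ckm* (at most 0.0440 FPKM). The part of the skeletal muscle markers in the values of *Des*, *Tpm1* and *Tpm2* was not tested.

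**Figure D3:**
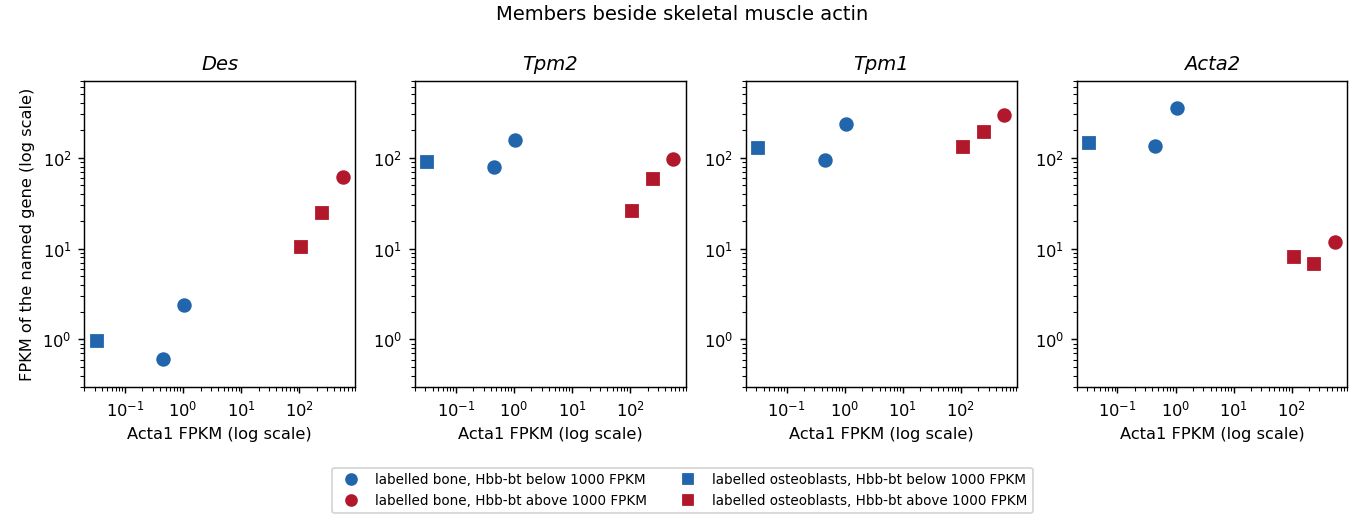
Each panel plots the FPKM of 1 gene against the FPKM of *Acta1*, skeletal muscle actin, in the 6 libraries, both on log scales, with circles for the label bone, squares for the label osteoblasts, red for *Hbb-bt* above 1000 FPKM and blue for below. In the 3 red points the ratio of *Des* to *Acta1* is 0.0951 to 0.109, against 1.36 to 30.0 in the blue points, while *Acta2* lies between 6.79 and 11.8 FPKM. The value of 30.0 rests on *Acta1* at 0.0324 FPKM, below the depth floor.

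Between the labels, *Acta2* was at 166 ± 171 FPKM (SD, n = 3) in bone and 53.0 ± 79.0 FPKM (SD, n = 3) in osteoblasts. Under each label the SD of *Acta2* was larger than its mean. On the scale of log2(FPKM + 1) the mean under osteoblasts was lower by 1.97 (difference -1.97, standard error 1.39, 95% interval -5.12 to 1.17, limma adjusted p = 0.999). *Tagln* differed by -1.64 (interval -4.51 to 1.24), *Actg2* by -1.68 (-4.71 to 1.36), *Cnn1* by -1.43 (-3.50 to 0.63) and *Lmod1* by -0.93 (-2.41 to 0.56). *Tpm2* differed by -1.02 (-2.40 to 0.35), *Tpm1* by -0.35 (-1.73 to 1.03), *Myl9* by -0.35 (-1.70 to 0.99) and *Des* by 0.26 (-2.80 to 3.31). Every interval held 0, and each also held changes of more than 1 on the log2 scale, so at this spread neither a difference nor its absence was shown. Leaving out single libraries turned the sign of *Des* (-0.80 to 1.83) and, without bone replicate 1, of *Myl9* (0.18). The unnamed feature over *Myh11* differed by 0.03 (standard error 0.43).

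None of the 9 genes passed the limma threshold, an adjusted p under 0.05, nor an unadjusted p under 0.05. Over all 12112 genes limma called 0 (0%), and 17 had an unadjusted p under 0.05 (0.14%). The labels did not overlap for 0 of the 9 genes, against 0.479% of all genes with osteoblasts higher and 0.438% with osteoblasts lower. The difference was negative for 8 of the 9, against 37.4% of all genes, with a median of -1.02 against 0.12 over all genes. Without the library labelled osteoblasts replicate 1, limma called 4 of the 9 lower under osteoblasts, where 0.388% of 12362 genes were called lower and 2.52% higher. These were *Acta2* (-3.34, limma adjusted p = 0.0154), *Actg2* (-2.95, adjusted p = 0.0174), *Tagln* (-2.87, adjusted p = 0.0244) and *Cnn1* (-2.19, adjusted p = 0.0456). Blood, endothelial and skeletal muscle markers were low in the library left out. Without bone replicate 3, where they were high, *Acta2* differed by -3.34 (limma adjusted p = 0.0693), short of the threshold. *Actg2*, *Cnn1* and *Tagln* then had limma adjusted p of 0.0722, 0.0732 and 0.0880. The call of these genes therefore depended on which library was left out.

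**Figure D4:**
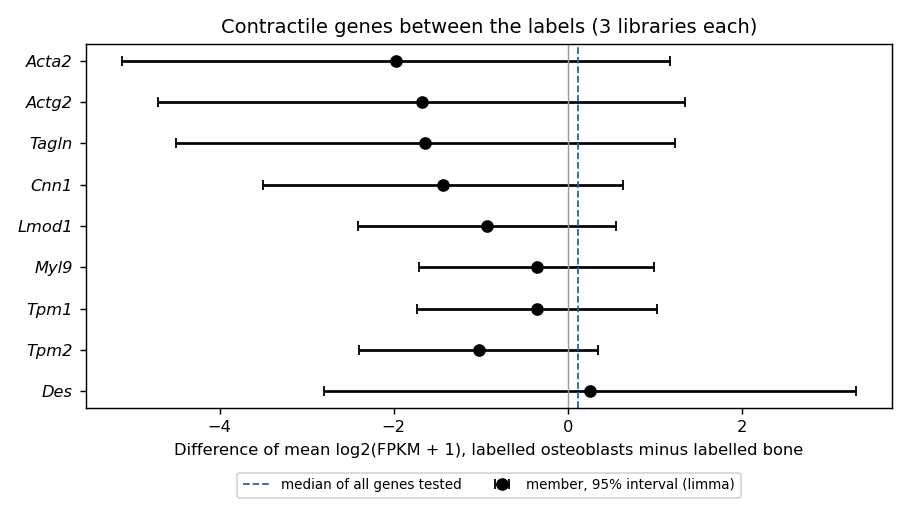
Points give the difference in mean log2(FPKM + 1), libraries labelled osteoblasts minus those labelled bone (3 each), with the 95% interval from limma as bars. The dashed line is the median of all genes tested, 0.12. The intervals of all 9 genes cross 0, and 8 of the 9 points lie below it.

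Scaling cancels in a ratio of 2 genes of the same library. *Acta2* relative to the unnamed feature over *Actb*, a cytoplasmic actin often used as a reference, was 0.203, 0.164 and 0.00633 under the label bone and 0.150, 0.00397 and 0.00343 under the label osteoblasts. Both labels held high and low values. On the log2 scale the ratio was -4.07 ± 2.80 (SD, n = 3) in bone and -6.30 ± 3.08 (SD, n = 3) in osteoblasts, a difference of -2.23 that was smaller than either SD (exact permutation test, two-sided, p = 0.2).

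Among other smooth muscle contractile and cytoskeletal genes, 22 of 28 were named and 17 were tested. Of these, 4 were lower in all high *Hbb-bt* libraries (*Vim*, *Tgfb1i1*, *Cnn3* and *Itga5*), 3 were higher (*Smtn*, *Pdlim3* and *Tagln2*) and 10 overlapped. The counts of 4 and 3 stand beside 16.9% lower and 38.4% higher over all genes. *Pdlim3* was at 0 in every low library and passed the filter on mean FPKM only through the high ones. *Vim*, the intermediate filament of mesenchymal cells, was at 260 to 545 FPKM in the low and 81.3 to 118 FPKM in the high libraries. *Flna*, a crosslinker of actin filaments, overlapped at 144 to 345 and 257 to 296 FPKM, as did the crosslinker *Actn1* at 44.5 to 100 and 45.3 to 53.2 FPKM. As deposited, the wide gaps of *Acta2* and *Tagln* were thus not found for these abundant genes of the general cytoskeleton. Whether *Flna* and *Actn1* still overlapped when rescaled to named genes was not examined. Limma called 0 of the 17 between the labels.

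Of the genes that regulate contractile transcription, 21 of 22 were named and 20 tested, with 9 lower and 5 higher in the high *Hbb-bt* libraries, beside 16.9% and 38.4% of all genes, and 0 called by limma between the labels. *Srf* itself overlapped, at 10.8, 4.62 and 12.6 FPKM under the label bone and at 5.14, 10.1 and 11.6 FPKM under the label osteoblasts. Its partner *Myocd*, named here after its values were seen, was at 1.95, 0.181 and 0.0178 FPKM and at 0.813, 0.0744 and 0 FPKM, at most 0.181 FPKM in all but 2 libraries. *Mkl1*, a myocardin-related factor, was higher in the high libraries (20.1 to 27.0 against 7.95 to 16.1 FPKM). *Ctgf* and *Cyr61*, matricellular genes induced by tension and transforming growth factor beta, were lower there, *Ctgf* at 24.6 to 26.0 against 147 to 312 FPKM and *Cyr61* at 7.36 to 10.8 against 67.8 to 159 FPKM. Of the ligands, *Tgfb1* was higher in the high libraries (37.6 to 47.3 against 12.8 to 30.7 FPKM) and *Tgfb2* and *Tgfb3* were lower. The directions of these regulators, *Mkl1* and *Tgfb1* among them, are those of FPKM as deposited. Rescaled to named genes, 19.9% of all genes were higher in place of 38.4%, and the regulators were not compared on that scale.

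Matrix and surface genes of myofibroblasts went with *Acta2* in most cases. All 15 named genes of the 18 listed were tested. As deposited, 12 were lower in every high *Hbb-bt* library and 0 higher, beside 16.9% and 38.4% of all genes. Rescaled to named genes these shares of all genes were 50.1% and 19.9%, and the 15 genes were not counted on that scale. The 15 genes had a median difference between the labels of -1.05 and 0 limma calls. *Lox*, which crosslinks collagen, was at 503, 304 and 8.13 FPKM under the label bone and at 287, 7.07 and 12.2 FPKM under the label osteoblasts. *Thbs1*, a matricellular thrombospondin, was at 631 to 1067 FPKM in the low and 77.4 to 90.2 FPKM in the high libraries, and *Fn1*, fibronectin, at 335 to 753 and 117 to 188 FPKM. *Col1a1*, the main collagen gene of bone, overlapped, at 1662 to 3332 and 1499 to 2234 FPKM, and so did the matrix gene *Tnc*. Both overlaps are those of FPKM as deposited and were not examined on the scale of named genes.

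The other cells that carry contractile genes in bone are pericytes and the smooth muscle of vessels, which accompany endothelium. Endothelial markers were all 10 higher in the high *Hbb-bt* libraries, as were 38.4% of all genes, in the opposite direction to *Acta2*. Several, such as *Kdr* and *Tek* (at most 0.229 and 0.104 FPKM in the low libraries), had their direction set by the filter on mean FPKM. They reached a mean of 1 FPKM only through the high libraries. Pericyte and mural markers summed to 59.4 to 75.2 FPKM there and to 40.1 to 107 FPKM in the low libraries, with 1 of 9 tested lower (*Pdgfrb*) and 3 higher (*Kcnj8*, *Abcc9* and *Cox4i2*), and *Kcnj8* at 0 in every low library. These counts are near the shares over all genes, 16.9% lower and 38.4% higher, and are no result about these markers. Macrophage markers were lower in the high libraries for 8 of 8 genes (16.9% of all genes), and the part of none of these cell types in the values of *Acta2* was tested.

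The genes whose pattern over the 6 libraries was most like that of *Acta2* were found by the root mean square difference in log2(FPKM + 1), each gene centred on its own mean. Of 12111 genes, the nearest was *Thbs2* (0.20), a thrombospondin of connective tissue, followed by *Stab1* (0.24), a scavenger receptor of macrophages and sinusoidal endothelium, *Tagln* (0.27) and *Actg2* (0.30). *Tagln* and *Actg2* thus ranked 3 and 4. *Cnn1* ranked 77 (0.80), *Lmod1* 377 (1.34), *Tpm2* 1363 (1.74), *Myl9* 1718 (1.82), *Tpm1* 6274 (2.40) and *Des* 11835 (3.99). The genes most like *Des*, a search added after its values were seen, were the skeletal muscle genes *Ckmt2* (0.33), *Ryr1* (0.33), *Cox6a2* (0.34), *Eef1a2* (0.36) and *Myoz1* (0.39). *Eef1a2* is also used by neurons. *Acta1* ranked only 7619 (1.93) by this measure, since it ranged more widely than *Des*. With 6 libraries in 2 sets, many genes share such a pattern, and the differences are descriptions of these libraries.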

How the data were processed

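The authors isolated total RNA (RNeasy Plus Mini kit) from bone and from osteoblasts, made TruSeq v2 libraries, which do not mark strand, and aligned 75 bp paired-end reads to GRCm38 (mm10) with HISAT2 2.0.5, SAMtools 1.7 and StringTie 1.3.3 being named in the submitters' processing notes. For each feature they deposited its FPKM, scaled to all aligned fragments of the library. The TPM they deposited scale these values to a fixed sum, and their deposited coverage is the mean read depth per base. No read counts were given, so depth was read from coverage over FPKM, and numbers of read pairs are approximate, computed with the transcript length of GENCODE vM1.

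Entries of one name were summed, and labels were kept as deposited. For *Myh11* and *Actb* the unnamed feature with the largest overlap with the RefSeq gene (GRCm38.p6) was used. Genes whose mean FPKM was 1 or more were compared on log2(FPKM + 1) with limma 3.58.1 in R 4.3.3 (trend, Benjamini-Hochberg over all genes tested, threshold 0.05), and ratios with exact permutation tests (scipy 1.17.1). Nothing in the labels ties libraries to cultures or mice, so p-values measure the spread between these libraries. No sequencing batch is given in the sources used here. The scripts were tested on simulated data, with 200 genes given a log2 change of 2 between the labels. At an SD of 0.3 limma recovered 200 of them. With SDs drawn from those within the real labels it recovered 0, so at that spread changes of this size were not called.

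The members and gene lists were chosen with earlier results of these data known. The genes named are the members, *Hbb-bt*, up to 6 genes of each list with the highest mean FPKM, every actin, the 5 genes nearest to *Acta2* (1 of which is not reported here), and the largest changes past the limma threshold, of which there were none. Other genes named, among them the relatives in the family shares, *Srf*, *Myocd*, *Tgfb2*, *Tgfb3* and genes given beside a count, were chosen after their values were seen. Alternatives were other pseudocounts, filters and scalings, TPM, limma without trend, the replicate number as a block, and leaving out each library. *Actg1* as denominator and the feature over *Myh11* as member 10 were added after seeing the data.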

Additional observations from a re-analysis of the deposited data

Results flagged for a closer look

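*Myh11* has no named entry, and the unnamed feature over it lies outside the comparisons of named genes. It carried signal in all 6 libraries, from a lowest value of 0.523 FPKM in the library labelled bone replicate 2 to a highest of 1.72 FPKM in bone replicate 3. These are about 50.6 to 218 read pairs over the 6 libraries, above the 0.0201 to 0.0335 FPKM that 3 read pairs on its transcript would give.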

How the results depend on the processing

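Limma called 0 of the 12112 genes and 0 of the 9 contractile genes between the labels. Leaving out each library in turn gave 0 to 360 genes, with 3 called without bone replicate 3 and 360 without osteoblasts replicate 1, and 0 to 4 of the contractile genes, the 4 being called without osteoblasts replicate 1. A replicate block in the limma fit gave 49 genes (46 higher, 3 lower) and 0 of the contractile genes, and the ratios of *Acta2* to *Actb* and to *Tagln* had p = 0.25 in an exact sign-flip permutation test, the smallest it allows. Same-numbered libraries had correlations of deviations of 0.84, -0.75 and 0.83. Replicates 1 and 3 were in the same *Hbb-bt* set under both labels, while replicate 2 was not. These correlations therefore cannot decide whether the numbers pair the samples. The difference of *Myl9* turned to 0.18 without bone replicate 1 (range over libraries left out -0.63 to 0.18). That of *Des* turned to -0.26, -0.80 and -0.56 without bone replicate 1, bone replicate 2 and osteoblasts replicate 3 (range -0.80 to 1.83). The ratio of *Acta2* to *Actb* ranged from -4.01 to -1.29, that to *Tagln* from -0.37 to -0.12, and with *Actg1* as denominator the first was -2.66 (exact permutation test, p = 0.2). The other pseudocounts, filters and scalings, TPM and the fit without trend gave 0 called genes and left every direction of the 9 genes as it was. The causes were not tested. With a mean of at least 5 FPKM required, 7 of the 9 genes remained in the test. The median difference over all genes was 0.12 as deposited and -0.04 when scaled to named genes. Depth limits *Cnn1*, *Lmod1* and *Actg2* in the high *Hbb-bt* libraries.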
